A study of Mus musculus with 8 samples.

Results

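The 39 genes described here are read as signs of dividing cells. They comprise 13 genes of DNA replication and of the entry into it, the S and G1/S group, and 26 genes that act between replication and the end of mitosis, the G2/M group. They were chosen by symbol from textbook lists of S and G2/M phase genes, with earlier results of these data known, and all 39 were found among the 21859 gene rows of the count tables. RNA was sequenced from whole aortas of 4 *ApoE-/-* mice, which lack apolipoprotein E throughout the body and develop atherosclerosis, and of 4 wild-type (WT) mice. All 8 mice were males of the C57BL/6 background, were 40 weeks old and received a normal chow diet, and no other allele or agent was named in the labels for either group. Each library came from 1 mouse, so that n = 4 per genotype throughout. A whole aorta holds smooth muscle, endothelium, adventitia, adherent fat and, in *ApoE-/-* mice, plaque, and its RNA is an average over all of these cells.

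A cell that commits to division first switches on the E2F transcription factors, which induce the MCM helicase, the sliding clamp and the enzymes that make deoxynucleotides. After replication, cyclins A and B activate Cdk1, chromosomes condense, and kinesin motors and kinetochore proteins attach them to the spindle. The passenger complex and the spindle checkpoint then hold division back until the anaphase-promoting complex is released. Many G2/M genes are kept silent in resting cells by the DREAM complex, which binds a promoter element named CHR (cell cycle genes homology region), often in company with CCAAT boxes bound by NF-Y. The normal arterial wall is known for a low rate of division, whereas smooth muscle cells and macrophages can divide in plaques.

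The libraries held 18375898 to 23940156 read pairs assigned to genes, and the *ApoE-/-* libraries, from 23240995 pairs upwards, were all deeper than the WT libraries, which reached at most 21664598. Levels are given as CPM, counts scaled to the size of the library with TMM factors, which corrects for these differences in depth. *Apoe* itself, the targeted gene, lay at 14.7 to 36.3 CPM in *ApoE-/-* and at 536 to 857 CPM in WT aortas. *Acta2* and *Myh11*, defining markers of the smooth muscle of the aorta, were abundant in every library, with at least 1416 and 1884 CPM. The *ApoE-/-* replicate 1 library stood apart: its 10 contractile smooth muscle genes summed to 5559 CPM, against 12318 to 22977 CPM in the other 7 libraries. Results that rest on it are given below with and without it. The share of pairs assigned to genes also separated the genotypes, at 32.3 to 35.6% in *ApoE-/-*, highest in replicate 4, and 27.9 to 30.2% in WT, and its part in the values below was not tested. Across the 15077 genes that passed the filter on low counts, the edgeR quasi-likelihood test with Benjamini-Hochberg adjustment called 70 genes at an adjusted p under 0.05, which is 0.464% of those tested, 0.371% higher and 0.0929% lower in *ApoE-/-*. Differences between genotypes are given as the log2 ratio of *ApoE-/-* to WT, the fold change on the log2 scale as fitted by edgeR, and its median over all tested genes was 0.05.

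The G2/M genes were expressed at very low levels in the aorta, and the replication genes at somewhat higher ones. Levels of different genes were compared per kilobase of exon (RPKM), on TMM-scaled libraries. In WT aortas the median level over the 26 G2/M genes was 0.274 RPKM and over the 13 S and G1/S genes 2.58 RPKM, against 5.36 RPKM over all tested genes with a known length. *Mcm6*, a subunit of the replicative helicase, was the highest member, with 9.14 ± 1.08 RPKM (SD, n = 4), at the 66.7th percentile of the tested genes. It was followed by the sliding clamp *Pcna* at 6.19 ± 0.185 RPKM and the helicase subunit *Mcm4* at 5.89 ± 0.961 RPKM, and these neighbours differed by less than the spread of *Mcm4*. The highest G2/M gene was *Cdc20*, the activator of the anaphase-promoting complex, at 1.19 ± 0.123 RPKM. The checkpoint kinases *Bub1* and *Ttk* and the cyclin *Ccnb1* closed the order at 0.0709, 0.0768 and 0.0775 RPKM, values closer to each other than their spread between mice. In *ApoE-/-* aortas the median over the G2/M genes was 0.405 RPKM and over the S and G1/S genes 2.59 RPKM.

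**Figure D1:**
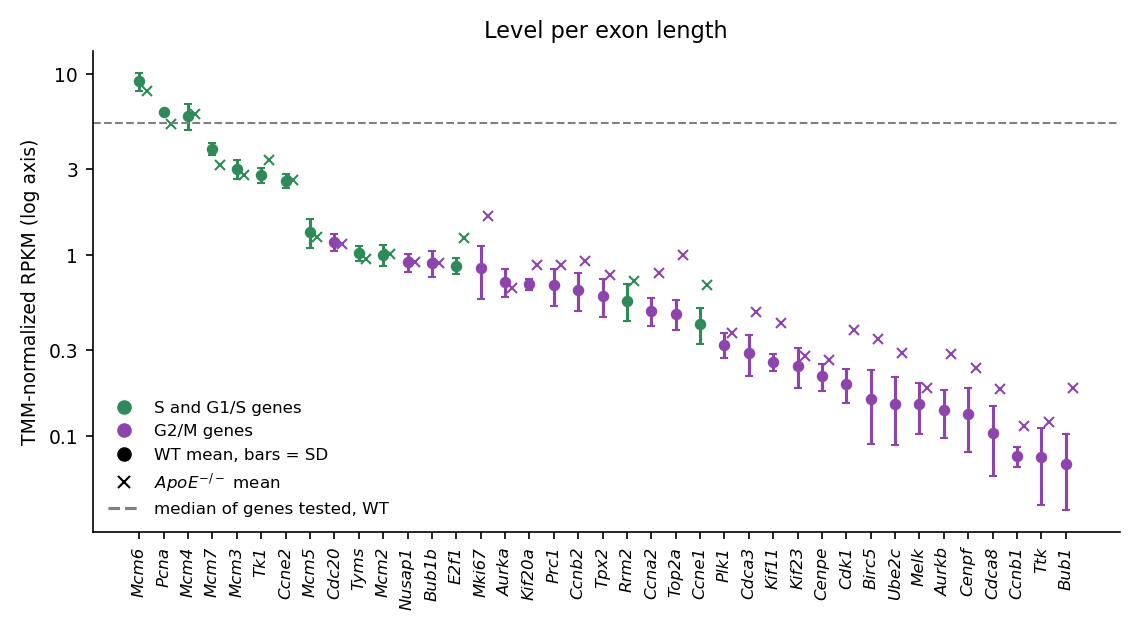
Level per exon length of the 39 genes, in TMM-normalized RPKM on a log axis, ordered by the WT mean. Points with bars are WT means and SD (n = 4), crosses are *ApoE-/-* means, green marks S and G1/S genes, purple marks G2/M genes, and the dashed line is the WT median of the tested genes, 5.36 RPKM. Only *Mcm6*, *Pcna* and *Mcm4* have WT means above that line.

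Of the 39 genes, 37 passed the filter, which asked for about 10 counts (0.445 CPM) in at least 4 libraries, and *Ccnb1* and *Bub1* did not. Of the 37, 27 had a log2 ratio above 0, as did 58% of all tested genes, and 10 one below 0, with a median of 0.35 and a range of −0.30 to 1.08. At an adjusted p under 0.05 the edgeR quasi-likelihood test called 0 of them, with a smallest adjusted p of 0.138, and limma-voom, which called 0.192% of all tested genes, also called 0. DESeq2, which made more false calls than its threshold allows on counts simulated with edgeR dispersions, called 1 higher, *Top2a*, and 0 lower, where it called 3.12% of all tested genes higher and 1.69% lower, 4.81% in all. At an unadjusted edgeR p under 0.05 there were 10 members, all higher in *ApoE-/-*. Of all tested genes 11.4% reached that level, 7.19% higher and 4.17% lower. The genotypes did not overlap for 6 members, all higher in *ApoE-/-*, where 5.41% of all tested genes were higher without overlap. Because 6 of the 37 (*Ube2c*, *Aurkb*, *Birc5*, *Cdca8*, *Ttk* and *Melk*) reached the count limit in 4 libraries only with *ApoE-/-* libraries among them, higher values in that genotype were in part a condition of their inclusion. Of the other 31, which reached it in all WT libraries, 7 had an unadjusted p under 0.05 and 4 did not overlap. In bulk tissue, a change in the number of cells of a type and a change in RNA per cell cannot be told apart.

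The lean towards higher values lay mostly in the G2/M group. Among its 24 tested genes, 20 had a log2 ratio above 0, 9 had an unadjusted edgeR p under 0.05 and 6 did not overlap, and the median was 0.59. Over the 18 of them that reached the count limit in all WT libraries, 14 were above 0, 6 had an unadjusted p under 0.05, 4 did not overlap and the median was 0.37. Among the 13 S and G1/S genes, 7 were above 0, 1 had an unadjusted p under 0.05, 0 were without overlap in either direction, and the median was 0.01. Whether the groups differ from each other was not tested. Without *ApoE-/-* replicate 1 the medians were 0.72 for the G2/M group and −0.02 for the S and G1/S group. The edgeR test then called 0 members, where it called 593 genes in all, 3.91% of those tested. DESeq2 without that mouse called 3 of 37 members, where it called 10.3% of all tested genes.

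**Figure D2:**
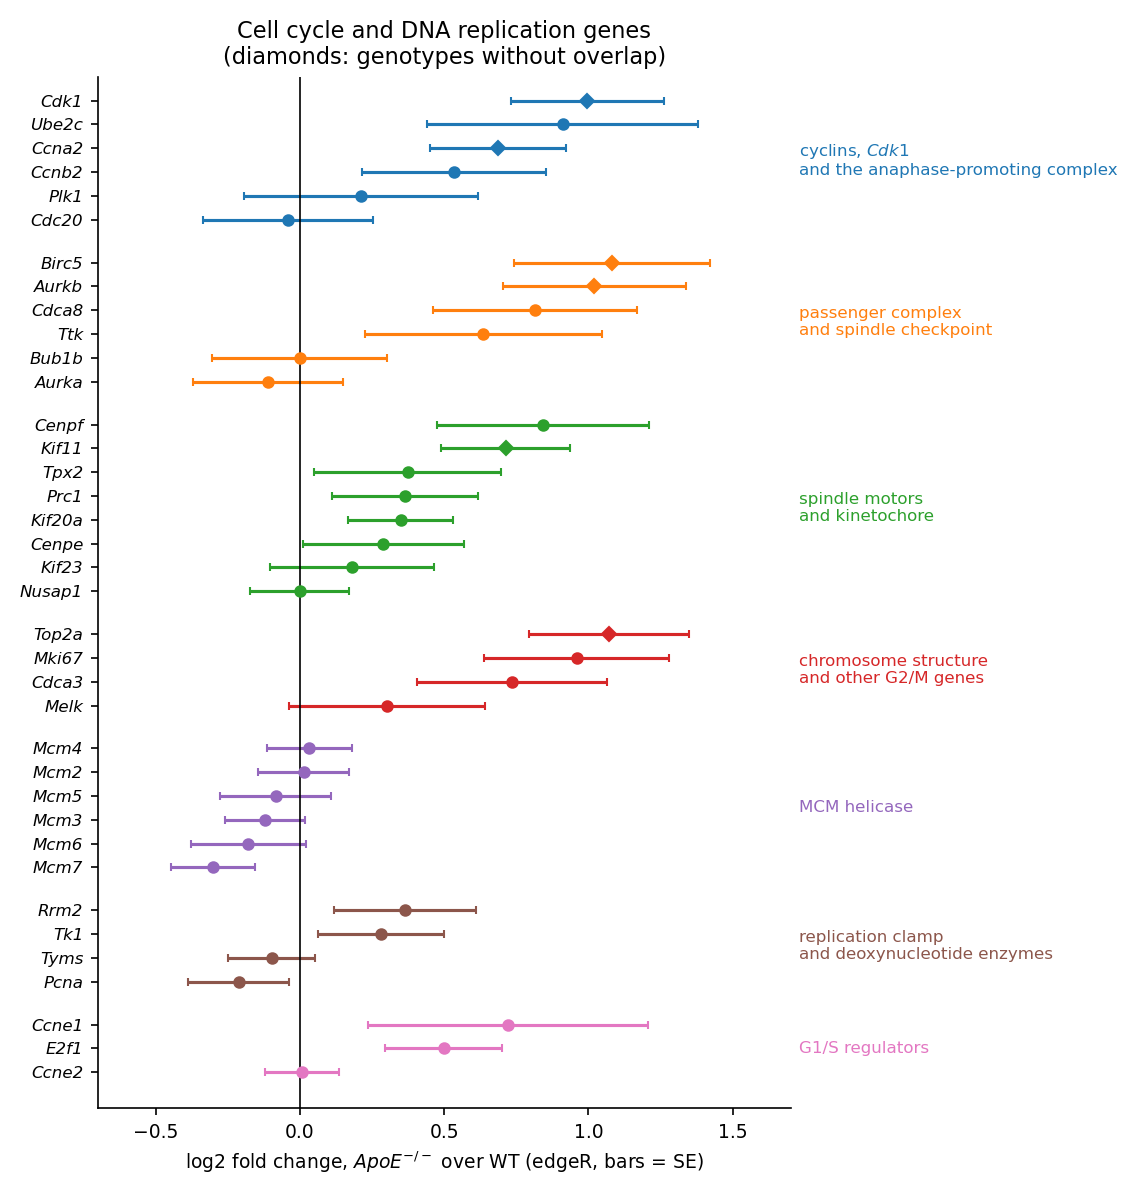
Log2 fold change of *ApoE-/-* over WT from edgeR for the 37 tested genes, by role, with bars for the standard error. Diamonds mark the 6 genes whose genotypes did not overlap in CPM, and the 6 MCM genes lie between −0.30 and 0.03.

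*Top2a* encodes topoisomerase II alpha, which untangles and condenses chromosomes, and lies at chr11:98992943-99024189 on the minus strand (GRCm38, ENSMUSG00000020914.17). Its level was 6.82, 7.04, 8.23 and 14.1 CPM in *ApoE-/-* replicates 1 to 4, and 4.86, 3.09, 4.60 and 4.64 CPM in WT replicates 1 to 4. All 4 *ApoE-/-* aortas lay above all 4 WT aortas, and *ApoE-/-* replicate 4 was the highest by a wide margin. The means were 9.04 ± 3.41 and 4.30 ± 0.815 CPM, a fitted 2.10-fold difference (log2 ratio 1.07, SE 0.28, 95% interval 0.43 to 1.71). This did not pass in edgeR (Benjamini-Hochberg adjusted p = 0.138) and passed in DESeq2 (adjusted p = 0.0161). The DESeq2 call was lost without any single WT mouse or without *ApoE-/-* replicate 3, the adjusted p reaching 0.102 at most, and was kept without each of the other *ApoE-/-* mice.

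*Mki67* encodes the Ki-67 protein that coats mitotic chromosomes and is the usual histological mark of cycling cells (chr7:135689784-135716361, minus strand, ENSMUSG00000031004.8). It measured 11.4, 12.6, 19.7 and 23.0 CPM in *ApoE-/-* replicates 1 to 4 and 11.4, 4.82, 8.31 and 9.72 CPM in WT replicates 1 to 4. *ApoE-/-* replicate 1 was marginally below WT replicate 1, and the other 3 *ApoE-/-* aortas exceeded every WT aorta. The log2 ratio was 0.96 (SE 0.32, 95% interval 0.22 to 1.70), which did not pass (edgeR adjusted p = 0.264, DESeq2 adjusted p = 0.0915). Leaving out *ApoE-/-* replicate 1 gave 1.10 with an edgeR adjusted p of 0.0997. DESeq2 then called 3 of 37 members, *Mki67*, *Top2a* and *Cdk1*, where it called 10.3% of all tested genes. Of the other 2 genes of this role, *Cdca3*, a cell cycle regulator that targets Wee1 for degradation, had a log2 ratio of 0.73 (SE 0.33), and *Melk*, a kinase of proliferating cells, one of 0.30 (SE 0.34), which was 0.13 without WT replicate 2. Neither passed in edgeR (adjusted p = 0.462 and 0.824).

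**Figure D3:**
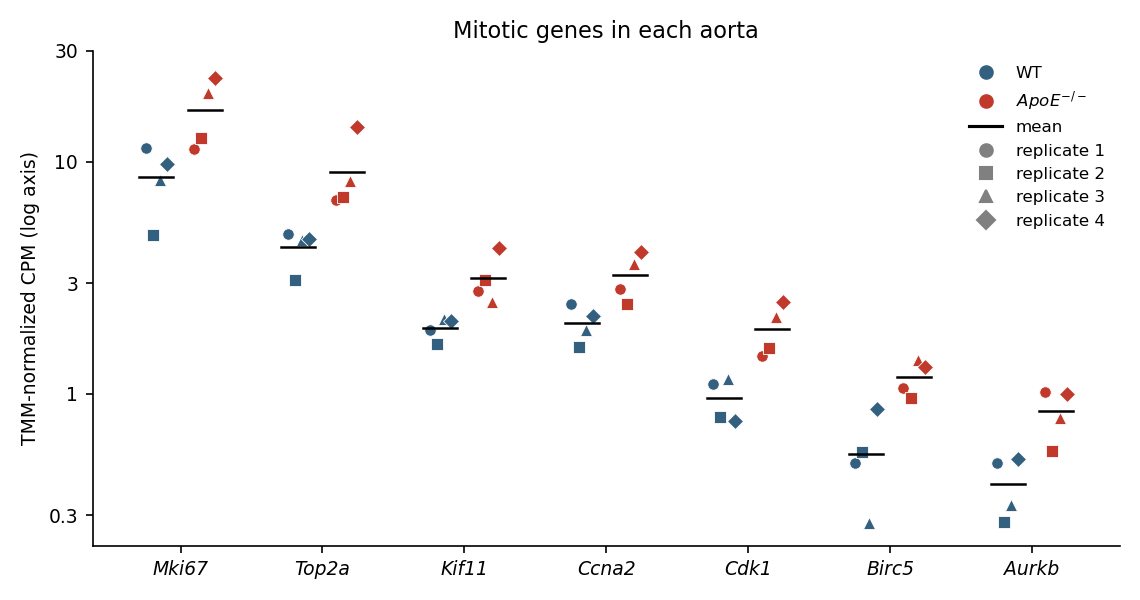
TMM-normalized CPM, on a log axis, of *Mki67* and of the 6 genes without overlap in each aorta. Blue marks WT, red marks *ApoE-/-*, symbols give the replicate number and black lines the means (n = 4). In all of them but *Mki67* the lowest *ApoE-/-* aorta lies above the highest WT aorta, by as little as 2.45 against 2.43 CPM for *Ccna2*.

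Among the engines of mitotic entry, *Cdk1*, the kinase that starts mitosis (chr10:69335146-69352938, minus strand, ENSMUSG00000019942.13), measured 1.46, 1.57, 2.13 and 2.47 CPM in *ApoE-/-* replicates 1 to 4 and 1.10, 0.796, 1.16 and 0.766 CPM in WT replicates 1 to 4. The genotypes did not overlap. The means of 1.91 ± 0.477 and 0.957 ± 0.205 CPM gave a log2 ratio of 1.00 (SE 0.27, 95% interval 0.39 to 1.60), which did not pass (edgeR adjusted p = 0.149, DESeq2 0.0726). *Ccna2*, cyclin A2, which partners Cdk1 and Cdk2, measured 2.84, 2.45, 3.62 and 4.08 CPM against 2.43, 1.59, 1.88 and 2.15 CPM in the same order. It did not overlap by a margin far under the spread between mice, and its log2 ratio of 0.69 (SE 0.24) did not pass (edgeR adjusted p = 0.279). *Ccna2* overlaps *Exosc9* by 510 exonic bases on the opposite strand, and 9 other members overlap a counted gene of the opposite strand, the longest stretch being the 1271 bases of *Kif20a* with *Cdc23*. The libraries were stranded and the count files are marked as stranded. The rest of this role gave log2 ratios of 0.91 (SE 0.47, and 0.55 without *ApoE-/-* replicate 4) for *Ube2c*, the ubiquitin carrier of the anaphase-promoting complex, 0.53 (SE 0.32) for *Ccnb2*, cyclin B2, 0.21 (SE 0.41) for the mitotic kinase *Plk1* and −0.04 (SE 0.29) for *Cdc20*, the latter pair moving to 0.48 and 0.10 without *ApoE-/-* replicate 1. Their edgeR adjusted p values ran from 0.551 to 0.976. *Ccnb1*, cyclin B1, held only 4 to 22 counts per library and was 0.406, 0.394, 0.174 and 0.955 CPM against 0.321, 0.374, 0.277 and 0.335 CPM. Fitted without the filter, its log2 ratio was 0.55 (SE 0.50).

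The passenger complex steers chromosome attachment and the final cut between daughter cells. Its kinase *Aurkb* (chr11:69045647-69051664) measured 1.01, 0.569, 0.784 and 0.998 CPM in *ApoE-/-* replicates 1 to 4 and 0.505, 0.281, 0.332 and 0.527 CPM in WT replicates 1 to 4. Its partner *Birc5*, survivin (chr11:117849251-117855743), measured 1.06, 0.962, 1.39 and 1.30 CPM against 0.505, 0.562, 0.277 and 0.862 CPM. For both genes every *ApoE-/-* aorta lay above every WT aorta, on 6 to 25 counts per library for *Aurkb* and 5 to 32 for *Birc5*. The log2 ratios of 1.02 (SE 0.32) and 1.08 (SE 0.34), the latter the largest of the 37 tested members, did not pass in edgeR (adjusted p = 0.22 and 0.228). The third subunit on the list, borealin or *Cdca8*, gave 0.81 (SE 0.35, edgeR adjusted p = 0.437). The spindle checkpoint genes were mixed in value. *Ttk*, the Mps1 kinase, had a log2 ratio of 0.64 (SE 0.41, and 0.37 without WT replicate 4) on 3 to 19 counts, *Bub1b*, the BubR1 protein, one of −0.00 (SE 0.30), and the centrosomal kinase *Aurka* one of −0.11 (SE 0.26). The unfiltered fit gave *Bub1*, at 0.528, 0.437, 0.915 and 1.35 CPM against 0.413, 0.187, 0.443 and 0.191 CPM, a log2 ratio of 1.37 (SE 0.49) with an edgeR adjusted p of 0.336 over 19606 genes. *ApoE-/-* replicate 2 lay just below WT replicate 3, and the others above all WT mice.

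Among the motors and kinetochore proteins, *Kif11*, the Eg5 kinesin that pushes spindle poles apart (chr19:37376403-37421859, plus strand, ENSMUSG00000012443.4), measured 2.76, 3.10, 2.48 and 4.25 CPM in *ApoE-/-* replicates 1 to 4 and 1.88, 1.64, 2.11 and 2.06 CPM in WT replicates 1 to 4. The genotypes did not overlap, and the WT mice were close together at 1.92 ± 0.212 CPM. The log2 ratio of 0.71 (SE 0.22, 95% interval 0.20 to 1.23) did not pass (edgeR adjusted p = 0.227, DESeq2 0.129). *Cenpf*, a large protein of the outer kinetochore, was 2.23, 3.02, 4.70 and 4.86 CPM against 3.03, 1.17, 2.33 and 1.72 CPM, so that *ApoE-/-* replicates 3 and 4 exceeded all WT mice and replicates 1 and 2 did not. Its log2 ratio was 0.84 (SE 0.37, edgeR adjusted p = 0.439). The other 6 ran from 0.37 (SE 0.33) for *Tpx2*, which seeds spindle microtubules, through 0.36 (SE 0.25) for the midzone protein *Prc1*, 0.35 (SE 0.18) for the cytokinesis kinesin *Kif20a*, 0.29 (SE 0.28) for the kinetochore motor *Cenpe* and 0.18 (SE 0.28) for the midbody kinesin *Kif23*, to −0.00 (SE 0.17) for the microtubule-bundling *Nusap1*. Their edgeR adjusted p values were 0.555 or more. The edgeR ratios of *Tpx2* and *Cenpe* came down to 0.20 and 0.11 without *ApoE-/-* replicate 4, and that of *Prc1* to 0.15 without replicate 3. *Nusap1* was among the more precisely measured G2/M genes, at 3.72 ± 0.380 CPM in *ApoE-/-* and 3.72 ± 0.434 CPM in WT, and its 95% interval ran from −0.39 to 0.39.

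A promoter window was found for 33 of the 39 genes in a RefSeq table of the GRCm38.p6 build, covering 250 bases before to 50 bases after each start. There was none for *Ccna2*, *Aurkb*, *Kif20a*, *Tpx2*, *Mcm4* and *Ccne2*. The 200 bases before the RefSeq start are printed for the 4 genes without overlap that have a window, *Top2a* (chr11:99024190-99024389, minus strand), *Cdk1* (chr10:69352913-69353112, minus strand), *Kif11* (chr19:37376182-37376381, plus strand) and *Birc5* (chr11:117849037-117849236, plus strand), and for the proliferation marker *Mki67* (chr7:135716380-135716579, minus strand). *Mcm6* (chr1:128359706-128359905, minus strand), the S or G1/S member with the highest level per exon length, is printed for contrast. All are written 5′ to 3′ on the strand of the gene. In the G2/M genes capitals mark the CHR letters TTTGAA or TTCGAA and the CCAAT box letters CCAAT, each on either strand, and in *Mcm6* they mark the E2F letters and CCAAT.
Top2a: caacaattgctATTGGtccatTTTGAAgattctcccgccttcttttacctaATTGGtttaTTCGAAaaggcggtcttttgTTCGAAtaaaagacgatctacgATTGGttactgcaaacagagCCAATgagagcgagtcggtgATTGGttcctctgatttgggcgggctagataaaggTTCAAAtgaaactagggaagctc
Cdk1: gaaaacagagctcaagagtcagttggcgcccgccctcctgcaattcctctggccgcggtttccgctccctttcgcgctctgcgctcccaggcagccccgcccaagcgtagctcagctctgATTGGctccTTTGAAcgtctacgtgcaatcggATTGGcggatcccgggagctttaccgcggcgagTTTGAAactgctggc
Kif11: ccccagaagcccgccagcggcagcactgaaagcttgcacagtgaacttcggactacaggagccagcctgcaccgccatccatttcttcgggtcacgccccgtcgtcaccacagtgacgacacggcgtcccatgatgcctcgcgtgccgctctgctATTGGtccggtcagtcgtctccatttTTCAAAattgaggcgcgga
Birc5: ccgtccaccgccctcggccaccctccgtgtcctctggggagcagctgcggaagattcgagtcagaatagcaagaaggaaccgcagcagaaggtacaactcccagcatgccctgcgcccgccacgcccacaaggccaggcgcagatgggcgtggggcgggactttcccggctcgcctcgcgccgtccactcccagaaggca
Mki67: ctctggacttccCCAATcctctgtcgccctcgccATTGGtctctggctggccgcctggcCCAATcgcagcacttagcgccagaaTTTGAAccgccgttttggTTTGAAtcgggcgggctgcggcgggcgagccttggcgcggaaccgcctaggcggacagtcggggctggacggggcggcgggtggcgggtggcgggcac
Mcm6: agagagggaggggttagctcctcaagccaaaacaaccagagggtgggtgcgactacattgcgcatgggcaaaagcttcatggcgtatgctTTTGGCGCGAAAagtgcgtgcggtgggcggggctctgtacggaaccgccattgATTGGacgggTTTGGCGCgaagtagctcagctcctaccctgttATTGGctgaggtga
Counted in bases from the start, CHR letters in *Top2a* began at −179, −140, −120 and −23, amid 5 CCAAT boxes. In *Cdk1* they began at −71 and −15, in *Mki67* at −116 and −98, and in *Kif11* at −19. *Birc5* held neither CHR nor CCAAT letters and has no capitals. In *Mcm6* E2F letters began at −110, −106 and −47, and the first pair of matches overlap on opposite strands. No CHR letters overlap a CCAAT box in the genes printed, and the E2F letters of *Cdk1*, at −131, are not capitalised.

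Over the whole windows, CHR letters were present in 17 of 22 G2/M genes (77.3%) and 2 of 11 S and G1/S genes (18.2%), against 21.7% of 27025 genes with a window in the table. The 5 G2/M genes without them were *Birc5*, *Ccnb1*, *Cenpe*, *Melk* and *Nusap1*. CCAAT was present in 19 of 22 G2/M genes (86.4%), 7 of 11 S and G1/S genes (63.6%) and 41.1% of all genes. CHR and CCAAT letters occurred together in 17 of 22, in 2 of 11 and in 9.65% of all genes. The E2F letters searched were TTTCGCGC, TTTCCCGC, TTTGGCGC and TTTGCCGC on either strand. They were present in *Mcm3*, *Mcm5*, *Mcm6* and *Mcm7*, 4 of 11 S and G1/S genes (36.4%), in *Cdk1* alone of 22 G2/M genes (4.55%) and in 2.61% of all genes. These shares describe letters in a window and were not tested. A match is not a bound site, and an absent match says only that these letters are not in these 300 bases. *Birc5* and *Nusap1*, both without CHR letters, had log2 ratios of 1.08 and −0.00.

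**Figure D4:**
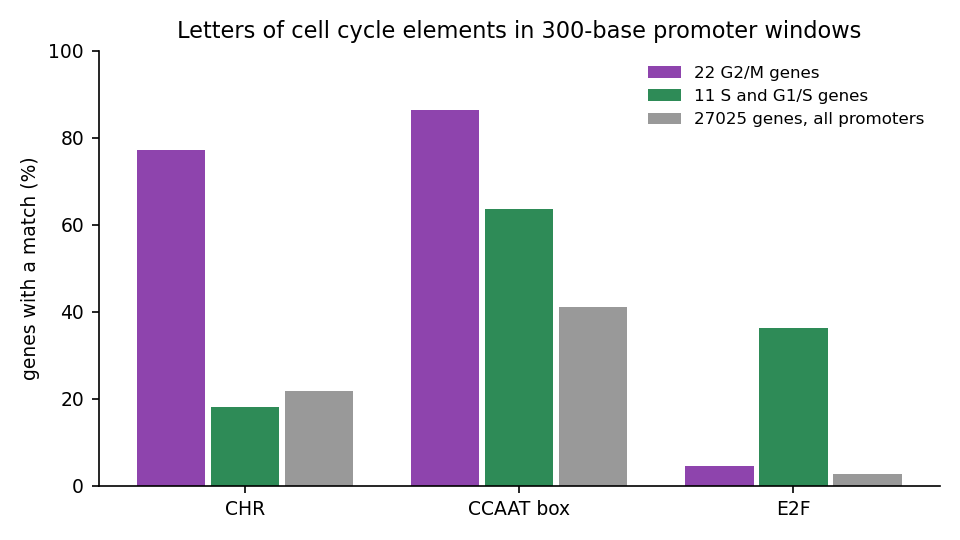
Share of genes, in percent, whose 300-base RefSeq promoter window holds CHR, CCAAT box or E2F letters on either strand, for 22 G2/M genes, 11 S and G1/S genes and all 27025 genes with a window. CHR letters stand at 77.3%, 18.2% and 21.7%, and E2F letters at 4.55%, 36.4% and 2.61%.

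Summed over the 26 G2/M genes, the level was 61.2, 64.5, 86.1 and 101 CPM in *ApoE-/-* replicates 1 to 4 and 58.7, 43.9, 55.4 and 52.3 CPM in WT replicates 1 to 4. *ApoE-/-* replicates 3 and 4 were clearly above all WT mice, whereas replicates 1 and 2 were close to WT replicate 1. *Mki67*, *Top2a* and *Prc1* make up much of such a sum, so the mean of log2 CPM over the 24 tested genes, in which each gene counts alike, was also taken. It was 0.90, 0.87, 1.29 and 1.50 in *ApoE-/-* and 0.86, 0.44, 0.67 and 0.66 in WT, with *ApoE-/-* replicates 1 and 2 barely above WT replicate 1. *ApoE-/-* replicate 4 was the highest of the 8 libraries in 18 of the 24 tested G2/M genes, replicate 3 in 5 and replicate 1 in 1 (*Aurkb*). WT replicate 2 was the lowest in 12 of the 24. Without *ApoE-/-* replicate 4 the median log2 ratio of the G2/M group was 0.45, and 0.70 without WT replicate 1.

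The S and G1/S genes summed to 129, 154, 155 and 157 CPM in *ApoE-/-* replicates 1 to 4 and to 152, 159, 164 and 144 CPM in WT replicates 1 to 4, with *ApoE-/-* replicate 1 below every other library. On the mean of log2 CPM the genotypes were 0.04 apart, 3.02 ± 0.093 in *ApoE-/-* and 2.98 ± 0.036 in WT. By that measure *ApoE-/-* replicate 1 was not low, at 3.05 against 2.94 to 3.01 in WT.

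**Figure D5:**
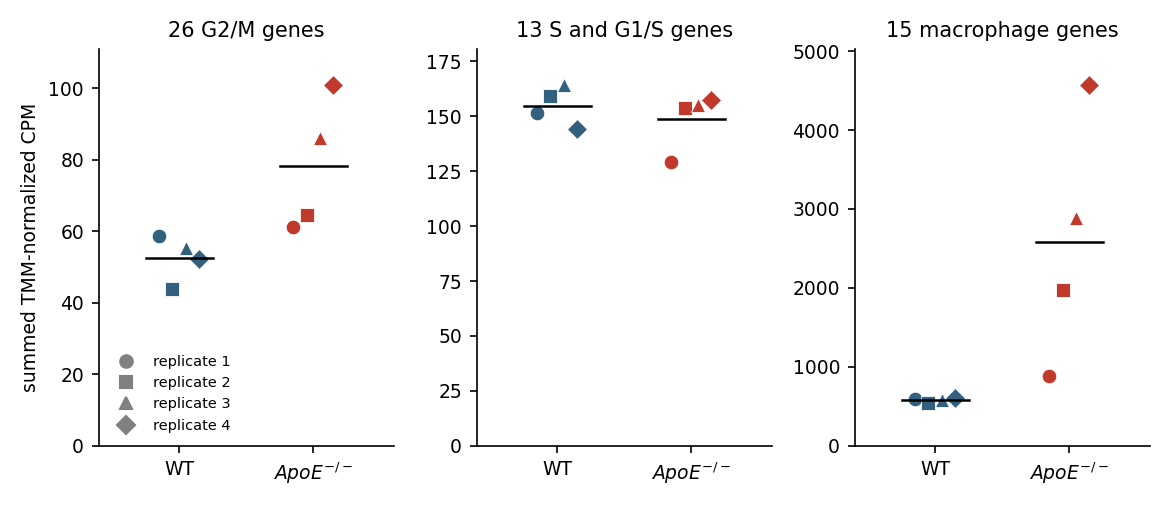
Summed TMM-normalized CPM of the 26 G2/M genes, the 13 S and G1/S genes and 15 macrophage genes in each aorta. Blue marks WT, red marks *ApoE-/-*, symbols give the replicate number and lines the means (n = 4). The G2/M sums of *ApoE-/-* aortas run from 61.2 to 101 CPM and the WT sums from 43.9 to 58.7 CPM.

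The 6 MCM genes encode the ring that unwinds DNA at the fork. Their log2 ratios lay between −0.30 and 0.03, with a median of −0.10, and none passed in edgeR or had an unadjusted p under 0.05. *Mcm7* was at the low end, with 13.5, 13.1, 11.7 and 17.7 CPM in *ApoE-/-* replicates 1 to 4 and 17.6, 15.3, 17.5 and 18.5 CPM in WT replicates 1 to 4. *ApoE-/-* replicates 1 to 3 lay below all WT mice and replicate 4 among them. The log2 ratio was −0.30 (SE 0.15, 95% interval −0.64 to 0.04, edgeR adjusted p = 0.516), and without *ApoE-/-* replicate 4 it was −0.43 in edgeR (adjusted p = 0.184) and −0.44 in DESeq2, which then called it (adjusted p = 0.0177). *Mcm6* measured 24.8, 42.8, 47.4 and 35.7 CPM against 42.3, 43.0, 48.8 and 36.4 CPM, with *ApoE-/-* replicate 1 alone far below, and its log2 ratio was −0.18 (SE 0.20), and −0.02 (SE 0.14) without that mouse. *Mcm3*, *Mcm5*, *Mcm2* and *Mcm4* gave −0.12 (SE 0.14), −0.08 (SE 0.19), 0.01 (SE 0.16) and 0.03 (SE 0.15). With single mice left out, the edgeR ratio of *Mcm3* ran from −0.20 to −0.05. For *Mcm4* the 95% interval of −0.31 to 0.37 bounds the difference on the log2 scale.

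*Pcna*, the clamp that tethers the polymerases, measured 11.3, 13.0, 9.76 and 17.3 CPM in *ApoE-/-* replicates 1 to 4 and 15.2, 15.1, 14.9 and 14.2 CPM in WT replicates 1 to 4. The WT mice were nearly alike, and the *ApoE-/-* mice lay on either side of them, replicate 4 above and the others below. Its log2 ratio was −0.21 (SE 0.18, edgeR adjusted p = 0.769). It was −0.39 without *ApoE-/-* replicate 4 (edgeR adjusted p = 0.254, DESeq2 0.0884) and −0.10 without replicate 3. *Tk1*, thymidine kinase of the salvage route, was 12.9, 22.6, 21.9 and 12.9 CPM against 14.5, 13.1, 16.4 and 13.8 CPM. *ApoE-/-* replicates 2 and 3 lay above and replicates 1 and 4 below every WT mouse, and the log2 ratio was 0.28 (SE 0.22), or 0.14 without *ApoE-/-* replicate 2. *Rrm2*, the regulated subunit of ribonucleotide reductase, and *Tyms*, thymidylate synthase, gave 0.36 (SE 0.25) and −0.10 (SE 0.15). With single mice left out, their edgeR ratios ran from 0.22 to 0.48 and from −0.15 to −0.03. None of these 4 genes passed in edgeR, with adjusted p values of 0.702 to 0.872.

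Of the 3 G1/S regulators, *E2f1*, the activating E2F factor, was the only S or G1/S gene with an unadjusted p under 0.05. It measured 4.87, 2.93, 3.83 and 4.04 CPM in *ApoE-/-* replicates 1 to 4 and 3.17, 2.48, 2.71 and 2.73 CPM in WT replicates 1 to 4. *ApoE-/-* replicate 2 lay below WT replicate 1 and the other 3 above all WT mice. The log2 ratio was 0.50 (SE 0.20, 95% interval 0.03 to 0.97, edgeR adjusted p = 0.389). It was 0.38 without *ApoE-/-* replicate 1, its highest library, and the unadjusted edgeR p rose to 0.0991. *Ccne1*, cyclin E1, was 3.86, 1.27, 0.784 and 1.43 CPM against 0.964, 1.45, 0.886 and 1.15 CPM. Its log2 ratio of 0.72 (SE 0.49) came down to 0.06 without *ApoE-/-* replicate 1, the 1 library in which it was high. *Ccne2*, cyclin E2, had a log2 ratio of 0.01 (SE 0.13, 95% interval −0.29 to 0.30).

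Beyond the members, 149 further cell cycle genes were taken from 7 lists by function, and 143 passed the filter. The edgeR test called 0 of them and limma-voom 0. At an unadjusted edgeR p under 0.05 there were 16 higher (11.2%, against 7.19% of all tested genes) and 7 lower (4.9%, against 4.17%). DESeq2 called 2 higher and 4 lower, 4.2% of them against 4.81% of all tested genes. Their median log2 ratio was 0.05, close to that of all tested genes. Of the 143, 10 reached the count limit in 4 libraries only with *ApoE-/-* libraries among them, *Hmmr* and *Ticrr* included, and over the other 133 the counts were 13 higher and 7 lower and the median 0.02. The list of kinetochore and spindle genes had the highest median. In it 25 of 32 tested genes were above 0, 6 were higher and 0 lower at an unadjusted p under 0.05, and the median was 0.33, which came to 0.25 over the 26 genes that reached the count limit in all WT libraries. The lists were not tested against each other. The medians of the other 6 lists lay between −0.02 and 0.06. For origin licensing and firing 10 of 19 were above 0, with 0 in either direction at an unadjusted p under 0.05, and for deoxynucleotide supply 4 of 9, also with 0. Of 29 replication fork genes 15 were above 0, with 1 higher and 2 lower at that level, and of 24 E2F, MuvB and G1 regulators 11, with 3 higher and 3 lower. Chromosome condensation and cohesion had 8 of 16 above 0, with 4 higher and 0 lower, and mitotic entry and exit 9 of 15, with 3 higher and 2 lower at that level.

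Closest to the threshold was *Cenpi*, a subunit of the inner kinetochore, at 1.26, 1.31, 1.48 and 1.48 CPM in *ApoE-/-* replicates 1 to 4 and 0.643, 0.702, 0.609 and 0.574 CPM in WT replicates 1 to 4. The genotypes were well separated, with a log2 ratio of 1.12 (SE 0.20, edgeR adjusted p = 0.0526, DESeq2 0.0235). *Espl1*, separase, the protease that frees sister chromatids, measured 5.93, 4.24, 5.01 and 5.16 CPM against 2.66, 2.15, 1.77 and 2.92 CPM. It too was without overlap, and its log2 ratio of 1.09 (SE 0.21) missed the threshold in edgeR (adjusted p = 0.0674) and passed in DESeq2 (adjusted p = 0.000254). *Cenpi* was highest in *ApoE-/-* replicate 3 and *Espl1* in replicate 1. Without *ApoE-/-* replicate 1 *Cenpi* passed in edgeR (adjusted p = 0.0349), and without any other single mouse its DESeq2 call was lost (adjusted p up to 0.136), whereas that of *Espl1* was kept without each mouse (adjusted p up to 0.00806). *Hmmr*, a spindle-binding protein, and *Incenp*, the scaffold of the passenger complex, had log2 ratios of 1.24 (SE 0.36) and 0.42 (SE 0.14), both without overlap and neither past the threshold (edgeR adjusted p = 0.189 and 0.26). The condensin subunit *Ncapg* and the cohesin protector *Sgo1* gave 0.72 (SE 0.22) and 0.51 (SE 0.18), again without overlap (edgeR adjusted p = 0.219 and 0.302). Among the genes of mitotic entry and exit, *Gtse1* and *Stil* gave 0.86 (SE 0.25) and 0.69 (SE 0.24), without overlap (edgeR adjusted p = 0.188 and 0.276). Of the G1 regulators, *Cdk6*, a kinase of G1, gave 0.47 (SE 0.15) and *E2f3*, an activating E2F factor, 0.57 (SE 0.18), and *Clspn*, the fork checkpoint mediator claspin, gave 0.55 (SE 0.23). *E2f3* and *Clspn* were without overlap and *Cdk6* was not, and none of the 3 passed in edgeR (adjusted p = 0.243, 0.244 and 0.389). Without *ApoE-/-* replicate 1 *Cdk6* passed in edgeR (log2 ratio 0.59, adjusted p = 0.0239) and in DESeq2 (adjusted p = 5.178e-05), and *Hmmr* in DESeq2 (adjusted p = 0.0221). Without *ApoE-/-* replicate 2 *E2f3* passed in DESeq2 (adjusted p = 0.023). The 3 smallest p of the licensing list belonged to *Ticrr*, *Orc6* and *Cdt1*, at 0.61 (SE 0.33), −0.20 (SE 0.11) and 0.45 (SE 0.31), with *Ticrr* at 0.37 without *ApoE-/-* replicate 3 and *Cdt1* at 0.22 without replicate 4. Those of deoxynucleotide supply belonged to *Rrm1*, the large subunit of ribonucleotide reductase, at −0.22 (SE 0.10), *Dck*, at 0.52 (SE 0.37), and *Cmpk2*, at 0.44 (SE 0.39). Without *ApoE-/-* replicate 1 the ratios of *Dck* and *Cmpk2* came down to 0.04 and −0.11.

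Of the 143 further genes 13 were higher in *ApoE-/-* without overlap (9.09%), where 5.41% of all tested genes were. Among the 133 that reached the count limit in all WT libraries there were 12 (9.02%). Lower in *ApoE-/-* without overlap were 4 of the 143 (2.8%), where 3.3% of all tested genes were. *Pola2*, a subunit of DNA polymerase alpha, measured 20.5, 17.2, 17.2 and 18.6 CPM in *ApoE-/-* replicates 1 to 4 and 24.7, 25.7, 26.0 and 22.7 CPM in WT replicates 1 to 4. All *ApoE-/-* aortas lay below all WT aortas, and the log2 ratio of −0.43 (SE 0.10) passed in DESeq2 (adjusted p = 0.00168, and at most 0.0422 without each mouse) and not in edgeR (adjusted p = 0.109, and 0.0384 without *ApoE-/-* replicate 1). *Rpa1*, which coats single-stranded DNA, gave −0.34 (SE 0.10), *Pkmyt1*, an inhibitory kinase of Cdk1, −0.60 (SE 0.15), and *Lin9*, a core subunit of the DREAM and MuvB complexes, −0.48 (SE 0.15). These 3 were also without overlap and passed in DESeq2 (adjusted p = 0.0381, 0.0149 and 0.0392) but not in edgeR (adjusted p = 0.183, 0.128 and 0.219). In DESeq2 leaving out any single WT mouse ended each of these 3 calls, as did leaving out *ApoE-/-* replicate 1, 2 or 4 for *Rpa1*, 3 or 4 for *Pkmyt1* and 2 or 3 for *Lin9*, with adjusted p values up to 0.254, 0.114 and 0.237. Replication-dependent histone genes, whose messages accumulate in S phase, were above 0 in 33 of 37 tested genes, where 58% of all tested genes were, with a median log2 ratio of 0.39. Of these 37, 8 reached the count limit in 4 libraries only with *ApoE-/-* libraries among them, *H2bc13* with no WT library at the limit, and over the other 29 the median was 0.18, 25 were above 0 and 2 had an unadjusted p under 0.05. Over all 37, none passed in edgeR and 3 (8.11%) had an unadjusted edgeR p under 0.05, all higher, where 7.19% of all tested genes were higher at that level. DESeq2 called 1 (2.7%), where it called 3.12% of all tested genes higher. This was *Hist1h4n* (log2 ratio 1.14, SE 0.24, DESeq2 adjusted p = 0.0144, edgeR 0.0766), which edgeR called without *ApoE-/-* replicate 1 (adjusted p = 0.045) and DESeq2 no longer called without *ApoE-/-* replicate 2, 3 or 4 or WT replicate 1, 2 or 3 (adjusted p up to 0.109). *H2bc13* and *H2bc8* gave 1.42 (SE 0.35) and 0.78 (SE 0.22), and DESeq2 called *H2bc8* without *ApoE-/-* replicate 3 (adjusted p = 0.0222). Histone copies are nearly identical and only uniquely aligned pairs were counted, so their values are uncertain.

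The summed markers of macrophages and of cardiac muscle did not overlap between the genotypes. The 15 macrophage genes, all above 0 in log2 ratio, 14 of them without overlap, 2 called in edgeR and 11 in DESeq2, summed to 883, 1974, 2890 and 4567 CPM in *ApoE-/-* replicates 1 to 4 and to 535 to 605 CPM in WT, and none was at 0. The 4 *ApoE-/-* aortas stood in the same order for the macrophage and the G2/M sums, which with 4 mice carries no test. The 10 fibroblast genes, 0 of them called in edgeR (2 at an unadjusted p under 0.05) and 2 in DESeq2, followed that order too, with 5280, 8548, 10459 and 12494 CPM, against 6161 to 7328 CPM in WT. On the mean of log2 CPM the G2/M order differed, with *ApoE-/-* replicate 1 at 0.90 and replicate 2 at 0.87. Macrophage genes rose from 5.01 to 5.83 and fibroblast genes from 8.11 to 8.96 between these mice. The 11 T cell genes found, of 12 listed, summed to 12.9 to 21.1 CPM in *ApoE-/-* and 9.14 to 12.9 CPM in WT, with all 10 tested genes above 0 and 0 called in edgeR or DESeq2 (3 at an unadjusted edgeR p under 0.05). The 10 B and plasma cell genes summed to 173 to 230 and 154 to 191 CPM, with 8 of 9 above 0, 0 called in edgeR (4 higher at an unadjusted p under 0.05) and 1 in DESeq2. Of 10 endothelial genes 9 were below 0, 3 of them without overlap, with 0 called in edgeR (5 lower at an unadjusted p under 0.05) and 3 called lower in DESeq2. Their sums overlapped, at 1726 to 2699 CPM in *ApoE-/-* and 2472 to 3019 CPM in WT, whereas their mean log2 CPM did not, at 6.92 to 7.36 and 7.42 to 7.53. The part of these cells in the values of the cell cycle genes was not tested. For thymus and bone marrow, tissues that divide constantly, the marker lists were mixed. The 10 thymocyte genes summed to 34.2 to 90.2 CPM in *ApoE-/-* and 35.3 to 77.6 CPM in WT, most of it *Cd1d1*. Among them *Ptcra* and *Rag1* reached at most 1 and 2 counts in any library, whereas *Themis* was at 0.566 to 1.22 CPM in *ApoE-/-* and 0.111 to 0.562 CPM in WT. The 10 genes of bone marrow granulocyte precursors summed to 1.83 to 5.64 and 1.97 to 3.08 CPM. *Mpo* and *Ctsg* reached at most 1 and 2 counts, *Elane* and *Prtn3* up to 39 and 40 counts with the genotypes overlapping, and *Chil3*, which macrophages can also express, was at 0.394 to 1.58 CPM in *ApoE-/-* and 0 to 0.328 CPM in WT. The levels of *Elane* and *Prtn3* lay within the range of those of the G2/M genes, and the part of these cells was not tested. Cardiac muscle genes, all 9 tested below 0 and 8 of them without overlap, 0 called in edgeR (8 lower at an unadjusted p under 0.05) and 6 called lower in DESeq2, summed to 160 to 345 CPM in *ApoE-/-* and 420 to 732 CPM in WT, and their part was not tested either. The 10 adipocyte genes were all below 0, with 0 called in edgeR or DESeq2 and 0 at an unadjusted edgeR p under 0.05, and their sums overlapped, at 2734 to 9925 CPM in *ApoE-/-* and 6112 to 12157 CPM in WT. Of 7 tested erythroid genes 6 were below 0, with 0 called in edgeR or DESeq2 and 1 lower at an unadjusted edgeR p under 0.05, on sums of 35.2 to 307 and 128 to 245 CPM over the 9 listed.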

How the data were processed

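RNA of 8 mouse aortas was sequenced as stranded, ribodepleted libraries, 1 per mouse, with paired reads. The authors deposited raw counts of uniquely aligned read pairs per gene, not normalized and not pooled. The submitters' processing notes name TopHat2, HTSeq and GRCm38/mm10, without versions. In each file 5 rows that name no gene (no feature, 50.1 to 54.7% of pairs in *ApoE-/-* and 56.4 to 58.0% in WT, ambiguous, 0.850 to 1.32%, not unique, 11.8 to 14.3%, and others) were left out of library sizes and tests. Of 21859 gene IDs, 21817 matched GENCODE M21, which gave coordinates and exon lengths, and 42 did not.

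In R 4.3.3, filterByExpr of edgeR 4.0.16 kept 15077 genes, and the quasi-likelihood F test (TMM factors, robust = TRUE, genotype only, two-sided, all 8 libraries) was adjusted by Benjamini-Hochberg over all of them, with a threshold of 0.05. The standard error is the log2 fold change divided by the square root of F, and the 95% interval uses the test's t distribution. Alternatives were DESeq2 1.42.0, limma-voom 3.58.1, other scalings and filters, a replicate block and leaving out each mouse. Log2 CPM used a prior count of 2. Promoter letters were searched with Python 3.11.15. On simulated counts with known changes, drawn with the libraries' own sizes, means and dispersions, the calls of edgeR, DESeq2 and limma-voom all had the right sign. The share of false calls stayed under the threshold in edgeR and limma-voom and was above it in DESeq2. G2/M genes held 3 to 530 counts per library and S and G1/S genes 16 to 1087. P-values set the genotype difference against the spread between these mice, which the tests moderate across genes. Replicate numbers name different mice in each genotype.

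All 39 members and, of each further list by function, the 3 genes with the smallest p were named. Members and lists were chosen with earlier results of these data known.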

Additional observations from a re-analysis of the deposited data

Results flagged for a closer look

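For each of the 37 tested members, and for the mean log2 CPM of all members, of the G2/M group and of the S and G1/S group, the highest and lowest of the 4 mice of a genotype were compared with the nearest of the others by Dixon's ratio. Of these 80 sets of 4 values, 4 stood out above the critical value of 0.829, and chance gives about 1 in 20, which is 4. WT replicate 2 was low for *Top2a*, at 3.09 CPM against 4.60 to 4.86 CPM in the other WT mice (ratio 0.850). WT replicate 3 was low for *Aurka*, at 1.33 CPM against 1.92 to 2.01 CPM (ratio 0.857), and high for *Kif23*, at 2.66 CPM against 1.65 to 1.73 CPM (ratio 0.921). *ApoE-/-* replicate 2 was low for *Mcm2*, at 5.99 CPM against 7.41 to 7.55 CPM (ratio 0.908).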

How the results depend on the processing

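Of 881 values of single members under the alternatives, 819 kept their direction and their side of the threshold, 7, all in DESeq2, newly passed it and 55 changed sign, all of the latter in genes whose log2 fold change lay between −0.11 and 0.21. Genes called in all were 70 in edgeR, 725 in DESeq2, 29 in limma-voom, 2 with the replicate block and 0 to 1562 without each mouse in turn (593 in edgeR without *ApoE-/-* replicate 1). Members called were 0 in edgeR, 0 with the replicate block, 1 in DESeq2 and 0 to 3 without each mouse. Members with an unadjusted p under 0.05 were 4 to 12 without each mouse, members higher without overlap 6 to 10, and lower 0 to 2. Further cell cycle genes called were 7 in DESeq2 (histone gene included), 1 with at least 10 counts in every sample (*Cenpi*, adjusted p = 0.047) and 0 to 10 without each mouse. The median log2 fold change without each mouse was 0.21 to 0.44 for all members, 0.45 to 0.72 for G2/M and −0.076 to 0.052 for S and G1/S. With at least 10 counts in every sample, which left 17 G2/M genes, the G2/M median was 0.37. Changes of sign were, for *Ccne2*, −0.0031 in DESeq2, −0.0022 with its size factors and −0.026 with upper-quartile factors, for *Mcm2* and *Mcm4* −0.025 and −0.0023 with upper-quartile factors, and for *Nusap1* 0.00027 with the count filter and 0.00092 with the block. Without each mouse the values ran from −0.26 to 0.048 for *Aurka*, −0.24 to 0.21 for *Bub1b*, −0.059 to 0.070 for *Ccne2*, −0.36 to 0.10 for *Cdc20*, −0.0072 to 0.37 for *Kif23*, −0.082 to 0.088 for *Mcm2*, −0.076 to 0.12 for *Mcm4*, −0.21 to 0.0046 for *Mcm5*, −0.090 to 0.066 for *Nusap1*, −0.045 to 0.48 for *Plk1* and −0.11 to 0.61 for *Cmpk2*. The deviations of same-numbered mice correlated at 0.059, −0.448, 0.316 and 0.162, so the number does not pair the samples. Only *ApoE-/-* replicate 3 correlated best with the WT mouse of its own number. G2/M genes held 3 to 530 counts per library, but counts alone did not set the precision: the standard error was 0.32 for *Mki67* (103 to 530 counts) and 0.17 for *Nusap1* (65 to 94 counts).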
